A study of Mus musculus with 12 samples.

Results

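The data described here are the RNA of 3 hearts from adult mice that had been exposed to filtered air and had a sham operation, the untreated corner of a study of diesel exhaust and pressure overload. They were chosen by their labels alone, as the 3 libraries of the filtered-air sham group among the 12 libraries of the series. The dams were kept in filtered air through most of gestation after timed mating, and the offspring were raised in filtered air. The hearts were imaged by echocardiography at 11 weeks, the sham operation followed at 12 weeks, and the hearts were frozen at 15 weeks of age. The labels give the tissue as heart, without naming a chamber, and they give no strain, genotype, sex or litter. All 3 animals therefore carry the anaesthesia, the opened chest and the handling of a sham operation, and they are not unoperated mice. No other group enters any value below, and with 1 group there is no contrast to test, so every value is a description with its spread over the 3 hearts.

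The adult heart muscle cell contracts without rest. Its mass is taken up by sarcomeres, in which myosin thick filaments pull on actin thin filaments under the control of troponin and tropomyosin, with titin as the spring that spans from the Z-disc to the M-band. Calcium released from the sarcoplasmic reticulum by the ryanodine receptor starts each beat, and the pump SERCA2a, restrained by phospholamban, takes the calcium back up. The energy comes from mitochondria, which burn mostly fatty acids, and whose respiratory chain is built from subunits coded by the nuclear and by the mitochondrial genome. Endothelial cells, fibroblasts, pericytes and macrophages fill the space between the muscle cells.

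The libraries held 10403385, 7009097 and 6712369 counts in hearts 1, 2 and 3. Levels are given as CPM, which is a gene's count divided by its library's total and scaled to a common depth. A count of 3, taken as the floor, corresponded to 0.288, 0.428 and 0.447 CPM, and this floor covers counting error only. CPM grows with the length of an RNA, so levels are set between genes per exon length, as TPM. That is the same measure divided by exon length and scaled over the protein-coding genes. Where a ranking or a leading gene is given in CPM, it is by counts, and the order per length can differ. Errors are standard deviations (SD, n = 3 hearts). Heart 1 stood apart. Over the genes with at least 30 counts in all, the chi-square per degree of freedom was 26.5 between hearts 1 and 2, 27.7 between hearts 1 and 3, and 10.2 between hearts 2 and 3. A value of 1 would be pure sampling noise, so the 3 libraries are distinct. The correlation of log2(CPM + 1) across genes was 0.947, 0.948 and 0.972 for the same pairs. Where heart 1 lies apart, the values are mostly given per heart.

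The label was checked against markers of ventricular muscle cells. All 15 genes of that list, from the myosin gene Myh6 to the transcription factor Irx4, were above 1 CPM in every heart, and 14 of them were above 100 CPM. Their summed level was 133709, 107939 and 117290.5 CPM. Ttn held 44.6% and Myh6 23.6% of this sum, and without both 42611, 34202 and 37466 CPM remained. Both are genes of the sarcomere at large, and whether the sum stems from ventricular muscle alone was not tested. Of the 10 lung markers, 9 had no count in any heart, and the summed level of the list was 0, 0.285 and 0 CPM. The 4 genes of the Y chromosome that were listed were above 10 CPM in every heart, with Ddx3y at 56.3, 55.8 and 53.8 CPM. Xist, the RNA that coats the inactive X chromosome of females, was at 1.35, 1.28 and 2.68 CPM, so the 3 libraries were alike in showing Y-chromosome genes.

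A few genes held most of the counts. Mitochondrially encoded RNA took 30.7% ± 1.53 of a library, and the genes of the sarcomere took 13.3% ± 1.48. Structural RNA of the nucleus and cytoplasm, such as the spliceosomal, nucleolar and Y RNAs, took 6.36% ± 1.19. The enzymes of glucose use, the citric acid cycle and the energy shuttle, with myoglobin, took 3.57% ± 0.327, and nuclear-coded oxidative phosphorylation 3.01% ± 0.0945. Calcium handling and excitation followed with 2.48% ± 0.167, and fatty acid use with 1.41% ± 0.0206. Long non-coding RNA held 1.13% ± 0.0619, cell structure and junctions 1.06% ± 0.0895, the extracellular matrix 0.440% ± 0.0396 and cytosolic ribosomal proteins 0.350% ± 0.0140. The 1886 genes without a matched symbol held 3.70% ± 0.189, pseudogenes 0.494% ± 0.0229 and microRNA genes 0.0218% ± 0.00782. The remaining 20999 genes shared 32.0% ± 1.20.

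**Figure D1:**
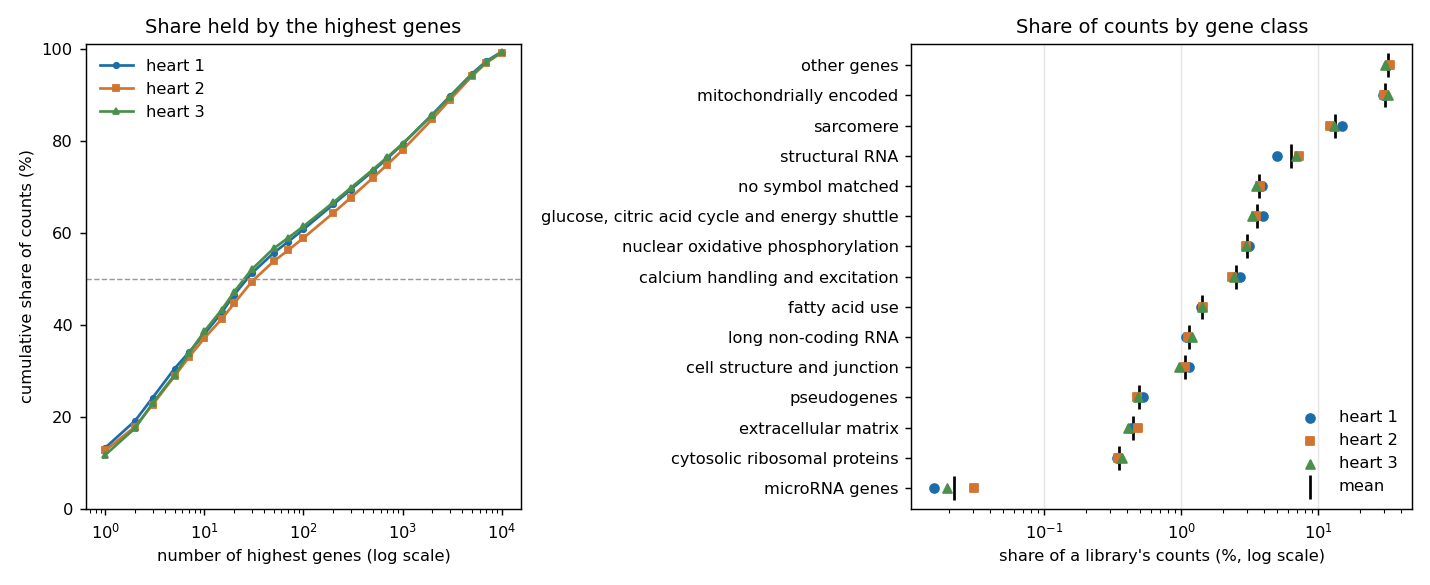
Left: cumulative share of a library's counts (%) against the number of highest genes (log scale), one line per heart, with a dashed line at 50%. Right: share of counts of each gene class (%, log scale) for hearts 1, 2 and 3, with the mean as a vertical tick. The lines of the 3 hearts nearly coincide and cross 50% at 25 to 33 genes, while heart 1 lies apart in structural RNA at 4.99% against 7.18% and 6.90%.

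The classes differed in how well the 3 hearts agreed. Fatty acid use took 1.39%, 1.43% and 1.42% of the counts in hearts 1, 2 and 3, which was the narrowest relative spread of a summed share among the classes, with a coefficient of variation of 1.46%. The sarcomere took 15.0%, 12.1% and 12.9%, with heart 1 highest. Structural RNA took 4.99%, 7.18% and 6.90%, with heart 1 lowest. Without heart 1 the mean shares were 12.5% for the sarcomere and 7.04% for structural RNA. The mitochondrially encoded share was 29.5%, 30.1% and 32.4%.

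In the 3 hearts, 27, 33 and 25 genes were enough to hold 50% of the counts. The 10 highest genes of each heart held 38.0%, 37.1% and 38.6%. When only nuclear genes were counted, 50% of those counts took 153, 206 and 176 genes. The head of the list was stable: 26 genes were among the 30 highest in all 3 hearts, 84 among the 100 highest and 841 among the 1000 highest. At the other end, 9328 of the 27179 genes in the table had no count in any heart. A level of 1 CPM in every heart was reached by 11803 genes, 10 CPM by 6398, 100 CPM by 725 and 1000 CPM by 60.

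Ranked by mean CPM, the first gene was mt-Rnr2, the large ribosomal RNA of the mitochondrion, at 126143 ± 7867 CPM. Titin (Ttn, chromosome 2, 76703980 to 76982557 in GRCm38) was second at 53349 ± 5463 CPM, and mt-Co1, a core subunit of cytochrome oxidase, came next at 53285 ± 4267 CPM. Their order changed with the heart, since Ttn was at 58512, 47628 and 53907 CPM and mt-Co1 at 49846, 51949 and 58061 CPM. The fourth and the 29th place were held by 2 genes whose numbers, 100861531 and 19791, were matched to no symbol. They were at 29712 ± 1349 CPM and 3757 ± 61.1 CPM. What kind of RNA they are was not determined. They are counted with the unmatched genes, so the structural RNA share does not hold them. Then came the small mitochondrial ribosomal RNA mt-Rnr1 at 28712 ± 6554 CPM and the alpha myosin heavy chain gene Myh6 at 28204 ± 3796 CPM. The muscle oxygen store myoglobin (Mb) was 12th at 9488 ± 2523 CPM, and the calcium pump gene Atp2a2 was 15th at 7868 ± 1146 CPM. Among the 30 highest genes were 11 mitochondrial messengers and ribosomal RNAs, 7 sarcomere genes, 5 structural RNAs and the nuclear long non-coding RNA Malat1. One enzyme outside all lists was 28th, the mitochondrial leucyl-tRNA synthetase Lars2 at 3845 ± 627 CPM.

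The mitochondrial genome codes for 2 ribosomal RNAs and for 13 subunits of the respiratory chain, and all 15 were above 100 CPM in every heart. The 2 ribosomal RNAs summed to 154595, 158855 and 151117 CPM. Their sum hid opposite differences. The large ribosomal RNA mt-Rnr2 was at 133381, 127278 and 117771 CPM, highest in heart 1. The small one, mt-Rnr1, was at 21213, 31577 and 33346 CPM, lowest in heart 1. The kit used removes ribosomal RNA before the library is made, so these levels are what was left after removal.

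The messengers of the respiratory chain also differed in their spread. Per length, mt-Co1 was highest at 98226 TPM, and mt-Co2 with 70713 and mt-Co3 with 51408 followed, the 3 core subunits of cytochrome oxidase. Of the 7 complex I subunits, mt-Nd1 was highest per length at 44105 TPM and mt-Nd6, the one coded on the other strand, lowest at 4486 TPM. The summed level of these 7 was 40318, 45139 and 53474 CPM, lowest in heart 1 and highest in heart 3. Cytochrome b (mt-Cytb) did not follow that order, with 13816, 8396 and 12721 CPM. The widest spread was that of mt-Atp8, a small subunit of ATP synthase, at 1254, 951 and 2470 CPM. With TPM scaled over all protein-coding genes, 8 mitochondrial messengers stood above the first nuclear one.

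Among nuclear genes the contractile apparatus led. Per length, the highest nuclear protein-coding gene was Mb (chromosome 15, 77015487 to 77050668) at 19176 ± 5545 TPM. The ventricular regulatory light chain Myl2 followed at 16343 ± 1395, the cardiac actin Actc1 at 13749 ± 3821 and Myh6 at 13191 ± 2079 TPM. Next were troponin I (Tnni3) at 10554 ± 2099, the essential light chain Myl3 at 9657 ± 2637 and troponin T (Tnnt2) at 8856 ± 1637 TPM. The ADP/ATP carrier of the inner mitochondrial membrane, Slc25a4, was eighth at 4924 ± 1393 TPM. Troponin C (Tnnc1), Atp2a2, phospholamban (Pln), the fatty acid binding protein Fabp3, the ATP synthase subunit Atp5b, the mitochondrial creatine kinase Ckmt2 and tropomyosin (Tpm1) filled the places down to the 15th, from 4284 to 3068 TPM. Of the 14 neighbouring pairs, 4 kept the order of their means in every heart. These were Myh6 above Tnni3, Tnnt2 above Slc25a4, Atp5b above Ckmt2 and Ckmt2 above Tpm1.

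**Figure D2:**
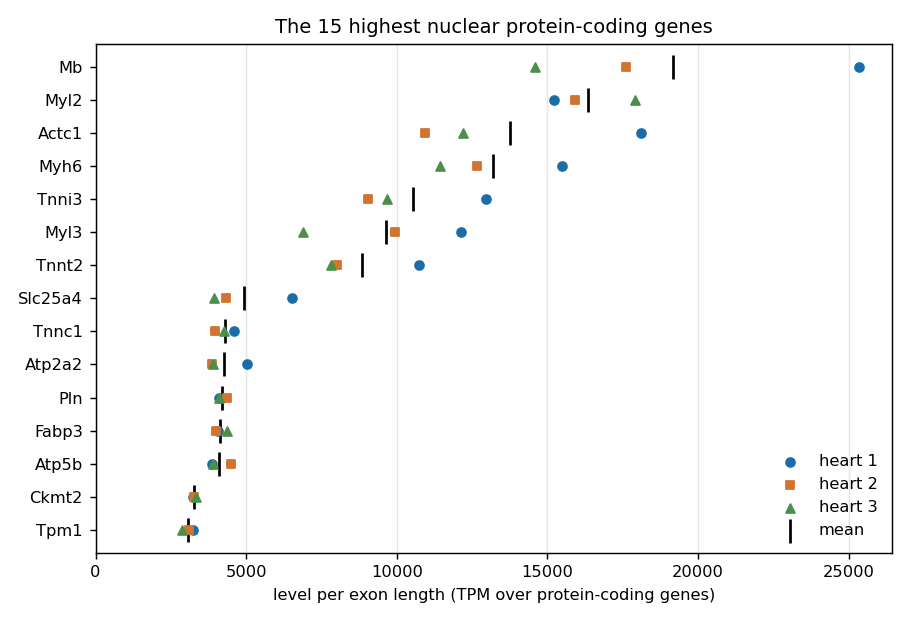
Level per exon length (TPM, linear scale) of the 15 highest nuclear protein-coding genes in hearts 1, 2 and 3, with the mean as a vertical tick. Heart 1 is the highest of the 3 for Mb, Actc1, Myh6, Tnni3, Myl3, Tnnt2, Slc25a4, Tnnc1, Atp2a2 and Tpm1. The hearts lie close together for Pln and Ckmt2.

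The thick filament genes summed to 48885, 40302 and 40749 CPM over 11 genes. Of these, 8 were above 1 CPM in every heart. Myh6 alone was at 32587, 26109 and 25917 CPM. Its neighbour on chromosome 14, the beta myosin gene Myh7, which is the main myosin of the fetal mouse ventricle, was at 1064, 855 and 760 CPM. Myh6 made up 96.9%, 96.9% and 97.2% of the pair per length, so the adult pattern was alike in the 3 hearts. Myosin binding protein C (Mybpc3) was at 4160, 3007 and 2995 CPM. The atrial light chains were low. Myl7 was at 1.06, 0.143 and 7.75 CPM and Myl4 at 4.33, 3.28 and 13.6 CPM. Both were highest in heart 3.

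The thin filament summed to 26532, 19342 and 21476 CPM over 20 genes. Actc1 was at 9181, 5439 and 6667 CPM. The skeletal actin Acta1, which the heart uses before birth, was at 317, 105 and 78.4 CPM, with heart 1 well above the others. Actc1 still made up 96.6%, 98.1% and 98.8% of the pair per length. Troponin I was of the adult cardiac form and not of the slow skeletal form that the embryonic heart uses. Tnni3 was at 4066, 2777 and 3278 CPM, and Tnni1 had 0, 0 and 4 counts. Nebulin (Neb), a giant ruler protein of the skeletal thin filament, was at 63.6, 5.56 and 42.5 CPM. That was the widest ratio between hearts of any protein-coding gene with a mean of at least 10 CPM, with heart 2 lowest.

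Titin and the Z-disc and M-band completed the sarcomere. The Z-disc genes summed to 10461, 8309 and 8704 CPM over 23 genes. Alpha-actinin (Actn2), which cross-links the thin filaments, was at 2185, 1555 and 1557 CPM. The chaperone Cryab was at 1261, 927 and 929 CPM, so both were highest in heart 1. Xirp2 was at 967 ± 96.0 CPM. The M-band genes held 5169, 5119 and 4605 CPM, with Myom1 at 1293 ± 63.4 CPM. Of the 64 sarcomere genes in all, 53 were above 1 CPM in every heart and none was without a count. Of the 49 with a mean of at least 10 CPM, 34 stayed within 1.5-fold between the highest and the lowest heart and 3 exceeded 2-fold, against 8.15% of all genes at that level.

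Promoter sequence of the same gene lists was also searched for motifs. The counts do not enter a match, but the lists were chosen with earlier results of these data known. The RefSeq windows used run from 250 bases before to 50 bases after a transcript start (GRCm38.p6), and the motifs named here were searched on both strands. More motifs and gene classes were searched than are given here, and a gene can have several windows. The CArG box, the site of serum response factor, was found in 11 of 68 windows of 50 sarcomere genes, or 16.2%, and in 1.63% of all 32851 windows. The MEF2 site was found in 5 of the 68 sarcomere windows, or 7.35%, and in 0.557% of all. The motif GGAATG, called MCAT and known as the site of TEAD factors, was found in 30.9% against 14.7%. In the 20439 windows of protein-coding genes alone, the shares of the CArG, MEF2 and GGAATG motifs were 1.54%, 0.479% and 13.4%. Not every muscle class had these motifs. In the 64 windows of calcium handling and excitation genes, CArG and MEF2 had 0 matches, and GGAATG was found in 10.9%. In windows of cell structure and junction genes, the CArG box was found in 8.33%, MEF2 in 0 and GGAATG in 12.5%. The factors themselves were expressed, with Srf at 64.1 ± 8.48, Myocd at 96.5 ± 7.21, Mef2a at 112 ± 12.9 and Tead1 at 163 ± 14.8 CPM. A match is a stretch of letters, and binding was not measured.

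The 250 bases before the start are printed for the sarcomere genes highest per length with a CArG box or a MEF2 site there, and for Acta1 as the partner of Actc1. Capitals mark CArG, MEF2 and GGAATG matches on either strand, none of which overlap. Actc1 lies on the minus strand of chromosome 2 (chr2:114052876-114053125) and its CArG box starts 47 bases before the start. Acta1 (chr8:123894776-123895025, minus strand) has one at 73 bases and a GGAATG match at 46. Myl3 (chr9:110763428-110763677, plus strand) has a CArG box at 85 bases and GGAATG matches at 149 and 177. Mybpc3 (chr2:91117894-91118143, plus strand) has a MEF2 site at 90 bases. Both actin genes thus share the box, while their levels per length were 13749 and 332 TPM.
Actc1: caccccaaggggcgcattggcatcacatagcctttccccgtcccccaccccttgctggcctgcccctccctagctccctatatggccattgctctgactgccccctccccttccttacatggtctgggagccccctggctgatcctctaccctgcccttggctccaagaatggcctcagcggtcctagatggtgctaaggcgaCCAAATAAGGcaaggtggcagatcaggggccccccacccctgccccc
Acta1: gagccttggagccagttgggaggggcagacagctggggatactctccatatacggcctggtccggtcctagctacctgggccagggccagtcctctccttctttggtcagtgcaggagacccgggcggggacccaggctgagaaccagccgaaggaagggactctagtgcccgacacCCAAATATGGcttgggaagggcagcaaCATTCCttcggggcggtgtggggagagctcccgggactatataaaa
Myl3: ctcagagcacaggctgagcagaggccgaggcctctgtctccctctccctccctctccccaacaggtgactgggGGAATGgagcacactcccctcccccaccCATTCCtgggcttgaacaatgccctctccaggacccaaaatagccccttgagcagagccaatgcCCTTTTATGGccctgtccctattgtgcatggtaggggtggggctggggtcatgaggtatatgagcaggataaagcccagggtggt
Mybpc3: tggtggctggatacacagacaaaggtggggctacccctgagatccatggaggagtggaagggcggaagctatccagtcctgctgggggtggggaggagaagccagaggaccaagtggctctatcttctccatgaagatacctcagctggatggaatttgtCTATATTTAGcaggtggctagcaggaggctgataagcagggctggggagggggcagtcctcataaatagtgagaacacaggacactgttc

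Genes of calcium handling and excitation were nearly all expressed, with 71 of 80 above 1 CPM in every heart. Reuptake dominated. The pump gene Atp2a2 was at 9113, 6857 and 7634 CPM and its inhibitor Pln at 3907, 4064 and 4189 CPM, the narrower of the pair. The other pump and inhibitor of muscle, Atp2a1 and sarcolipin (Sln), were low, and Atp2a2 made up over 99.9% of its pair per length in each heart. By CPM, calcium release was led by the ryanodine receptor Ryr2 at 3639, 2982 and 3359 CPM. The histidine-rich calcium binding protein Hrc was at 651 ± 18.7, calsequestrin (Casq2) at 598 ± 109 and junctophilin (Jph2) at 393 ± 84.9 CPM. Per length Hrc and Casq2 stood above Ryr2, at 725 and 663 against 520 TPM, and Jph2 below it at 265 TPM. The sodium-calcium exchanger Slc8a1, which extrudes calcium from the cell, was at 591 ± 113 CPM.

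Channels stood well below these. The L-type calcium channel Cacna1c was at 337, 371 and 351 CPM. The potassium channel genes summed to 1262, 1199 and 1163 CPM over 19 genes, all above 1 CPM in every heart. They were led by Abcc9, the sulfonylurea receptor of the ATP-sensitive channel, at 401 ± 22.3 CPM. The gap junction protein Gja1 was at 292, 192 and 321 CPM, lowest in heart 2. The pacemaker channel Hcn4 was at 4.90, 6.13 and 2.53 CPM. Signal transduction from the adrenergic receptor was led by the G protein Gnas at 509 ± 77.7 CPM, while the receptor gene Adrb1 itself was at 15.4 ± 1.95 CPM.

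Nuclear-coded subunits of the respiratory chain were evenly present. Of 90 genes in the class, 89 were above 1 CPM in every heart, and the exception, Uqcr11 of complex III, had no count in any heart. Complex V summed to 8817, 9140 and 8863 CPM, complex I to 7990, 7409 and 7829, complex IV to 3391, 3519 and 3589, complex III to 3062, 3132 and 2996, and complex II to 2174, 2070 and 2034 CPM. Each of these sums varied by less than 4% over the hearts (coefficients of variation from 1.95% to 3.87%). The 8 genes listed as mitochondrial carriers varied more, at 5639, 4174 and 4116 CPM, and Slc25a4, the highest of them, was at 4320, 2803 and 2813 CPM. By CPM, ATP synthase was led by its subunits Atp5b at 2749 ± 177 and Atp5a1 at 2389 ± 189 CPM. Cytochrome c (Cycs) was at 71.7, 72.5 and 73.0 CPM, and the channel Vdac1 at 505, 504 and 510 CPM. Both spreads were smaller than counting error alone would give, so no order of steadiness was drawn from them. Single subunits could still vary, as Cox6b1 did at 660, 273 and 372 CPM.

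Cytochrome oxidase carries muscle forms of some subunits, and these were the main ones per length. Cox7a1 made up 97.1% ± 0.340 of its pair with Cox7a2. Cox6a2 made up 88.6% ± 2.50 of its pair with Cox6a1, and Cox8b 86.3% ± 1.74 of its pair with Cox8a. Likewise the heart and muscle carrier Slc25a4 made up 95.3% ± 0.778 of its pair with Slc25a5. The muscle enolase Eno3 made up 98.3% ± 0.264 of its pair with Eno1. How reads with several matches were counted is not given. The share of a pair, here and elsewhere, is therefore uncertain where either gene has near-identical copies.

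**Figure D3:**
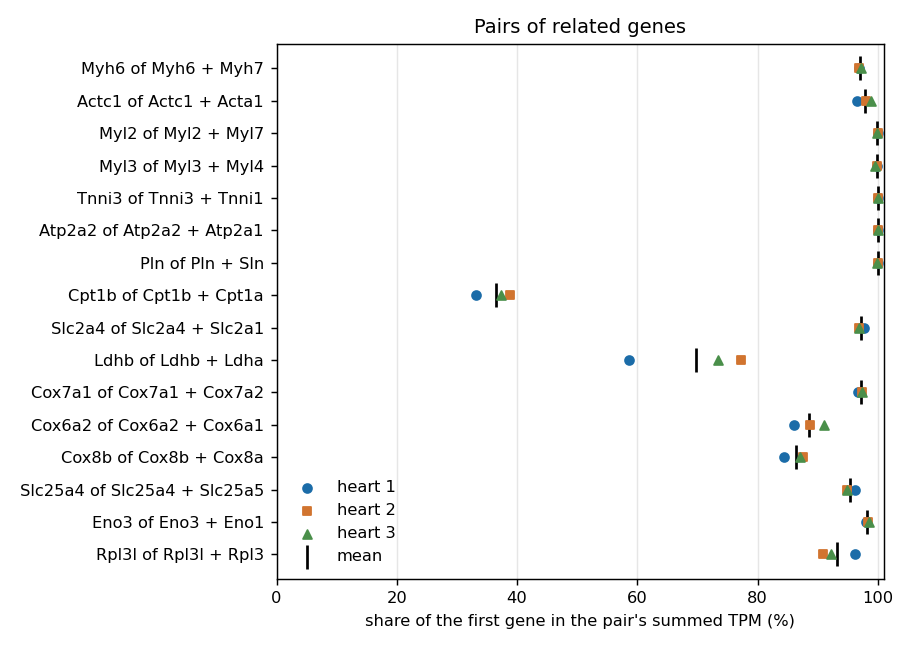
Share (%) of the first gene in the summed TPM of 16 pairs of related genes, for hearts 1, 2 and 3, with the mean as a vertical tick. The first gene held over 84% in every heart for 14 pairs, and the exceptions are Ldhb with 58.5% to 77.2% and Cpt1b with 33.2% to 38.9%.

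The promoters of this class differ from those of the sarcomere. The palindromic site of nuclear respiratory factor 1, searched with 1 base left free, was found in 20 of 80 windows of 74 genes, or 25.0%, against 4.60% of all windows and none of the sarcomere windows. The motif CCGGAAG, read by ETS factors such as GABP, was found in 23.8% of these windows, in 35.7% of those of cytosolic ribosomal proteins and in 8.86% of all. In windows of protein-coding genes alone, the shares were 6.59% for the nuclear respiratory factor 1 site and 11.8% for CCGGAAG. Windows of oxidative phosphorylation genes had a median GC content of 58.8% and those of the sarcomere 55.7%. The median was 57% for windows of protein-coding genes and 52.7% for all windows. The part of base composition in these shares was not tested. Nrf1 was at 4.42, 10.4 and 9.83 CPM and Gabpa at 41.8 ± 3.60 CPM. The 2 promoters printed are those of the genes highest per length with each motif before the start, again with matches in capitals. Sdha, the flavoprotein subunit of complex II (chr13:74350241-74350490, minus strand), has 3 such matches at 98, 55 and 10 bases before the start. Slc25a4 (chr8:46211063-46211312, minus strand) has a CCGGAAG match at 130 bases.
Sdha: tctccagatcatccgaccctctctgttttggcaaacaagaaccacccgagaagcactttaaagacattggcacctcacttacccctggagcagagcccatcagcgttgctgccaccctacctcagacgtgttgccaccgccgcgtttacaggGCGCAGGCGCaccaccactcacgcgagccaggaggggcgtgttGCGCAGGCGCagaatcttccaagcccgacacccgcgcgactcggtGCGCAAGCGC
Slc25a4: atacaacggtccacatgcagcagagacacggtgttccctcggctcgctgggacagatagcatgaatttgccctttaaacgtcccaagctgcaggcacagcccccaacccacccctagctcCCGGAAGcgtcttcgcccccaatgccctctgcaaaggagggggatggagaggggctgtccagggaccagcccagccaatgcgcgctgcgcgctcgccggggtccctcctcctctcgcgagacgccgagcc

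Fatty acid use varied little in its summed share. Its 46 genes with a mean of at least 10 CPM had a median coefficient of variation of 12.5%, beside 12.2% in the glucose and energy class and 12.3% in cell structure. Beta-oxidation, which cuts fatty acids into acetyl-CoA, summed to 5880, 5779 and 5895 CPM over 15 genes, all above 10 CPM in every heart. By CPM, beta-oxidation was led by Hadha, the alpha subunit of the trifunctional protein, at 1096, 1075 and 1118 CPM. The acyl-CoA dehydrogenases Acadvl, Acadm and Acadl, for very long, medium and long chains, were at 700 ± 33.5, 680 ± 57.2 and 600 ± 51.6 CPM. Per length these dehydrogenases stood above Hadha, at 921, 950 and 894 TPM against 779. By CPM, uptake was led by lipoprotein lipase (Lpl) at 1578, 2037 and 1868 CPM. Fabp3 was at 1149, 1113 and 1336 CPM and the fatty acid translocase Cd36 at 880, 982 and 1164 CPM. Per length Fabp3 stood highest of these, at 4147 TPM against 1268 for Lpl and 811 for Cd36. The 3 genes did not share an order of hearts. For entry into the mitochondrion, the muscle form Cpt1b was at 24.3, 26.0 and 21.3 CPM and the liver form Cpt1a at 73.1, 60.9 and 53.5 CPM. The count of Cpt1b is uncertain, since a read-through gene listed at 0 spans it on chromosome 15 and reads that fall in both could have been assigned to neither. Acacb, which makes the inhibitor of this step, was at 478 ± 93.0 CPM.

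In the class of glucose and shared energy metabolism, myoglobin alone held 0.949% of a library's counts on average. The citric acid cycle held 1.04%, the highest mean share of the class by CPM. Per length it stood below myoglobin, at 12617 against 19176 TPM. The 16 genes of the cycle summed to 10450, 10578 and 10149 CPM, and 15 were above 100 CPM in every heart. By CPM, Ogdh, the oxoglutarate dehydrogenase, led at 2102 ± 226. Idh2 was at 1187 ± 98.1 CPM and Mdh1 at 880, 1176 and 1257 CPM. Per length Ogdh stood below both, at 1353 TPM against 1945 for Idh2 and 1481 for Mdh1. Glucose transport and glycolysis summed to 5761, 5322 and 4726 CPM, highest in heart 1. The level of glycolysis is uncertain, since its enzyme Gapdh was very low and how reads with several matches were counted is not given. Aldoa was at 1135 ± 134 and Eno3 at 1225, 978 and 1003 CPM. The insulin-sensitive transporter Slc2a4 made up 97.2% ± 0.421 of its pair with Slc2a1 per length. Lactate dehydrogenase was mixed: the heart form Ldhb made up 58.5%, 77.2% and 73.4% of its pair with Ldha. In heart 1, Ldha was highest at 284 CPM and Ldhb lowest at 276 CPM.

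The energy shuttle and oxygen store complete the class. Creatine and adenylate kinases summed to 3321, 3210 and 3329 CPM. Ckmt2, which makes phosphocreatine at the mitochondrion, was at 1664, 1645 and 1832 CPM, and its partner at the myofibril, Ckm, at 1037, 990 and 901 CPM. Glycogen breakdown was led by Pygm at 888 ± 137 and Pygb at 611 ± 67.0 CPM. Oxct1, by which heart muscle uses ketone bodies, was at 712 ± 80.4 CPM. Myoglobin (Mb) was at 12368, 8428 and 7668 CPM, with heart 1 highest. The widest ratio between the highest and the lowest heart in the class was 1.70, that of the glycogen synthase Gys1, among the 75 genes with a mean of at least 10 CPM.

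By CPM, cell structure and junctions were led by desmoplakin (Dsp), which anchors the desmosome, at 2383, 1951 and 1624 CPM. The spectrin Sptbn1 was at 1126 ± 80.7, the intermediate filament desmin (Des) at 1028 ± 133 and plectin (Plec) at 516 ± 118 CPM. Per length Des stood above Dsp, at 974 against 594 TPM, and Sptbn1 and Plec below it, at 285 and 84.7 TPM. Dystrophin (Dmd), the membrane anchor of muscle, was at 328, 297 and 358 CPM. None of the 46 genes of this class with a mean of at least 10 CPM exceeded 2-fold between hearts, beside 8.15% of all genes at that level.

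The extracellular matrix held 42 genes, of which 41 were above 1 CPM in every heart. Basement membrane genes had high counts, which are not adjusted for length. Perlecan (Hspg2) was at 606, 665 and 497 CPM, the laminin Lamb2 at 492, 477 and 347 CPM, and the basement membrane collagens Col4a1 and Col4a2 at 284 ± 23.8 and 237 ± 29.4 CPM. The proteoglycan decorin (Dcn) was at 369 ± 31.0 CPM, and per length it stood higher, at 544 TPM against 119 for Hspg2, 224 for Lamb2 and 123 for Col4a1. Of the fibrillar collagens, Col3a1 was at 112, 153 and 152 CPM, Col1a2 at 84.6 ± 6.60 and Col1a1 at 59.3 ± 4.19 CPM. Postn, a marker of activated fibroblasts, was at 35.4, 37.2 and 47.8 CPM.

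Cytosolic ribosomal proteins summed to 0.339%, 0.345% and 0.366% of the counts over 80 genes. Rpl8 was highest at 204, 184 and 172 CPM and Rplp0 next at 145, 172 and 203 CPM, in opposite orders of the hearts. Rpl3l, the muscle form of Rpl3, made up 96.2%, 90.9% and 92.2% of the pair per length. Many ribosomal protein genes have near-identical processed copies in the genome, and how reads with several matches were counted is not given in the sources used here, so the levels of this class are uncertain.

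The hearts differed widely in structural RNA. The class held 190 genes, of which 127 had a mean of at least 10 CPM. Heart 1 was the lowest of the 3 in 110 of these, or 86.6%, and in 38.7% of the 7172 other genes at that level. Box C/D small nucleolar RNAs, which guide methylation of ribosomal RNA, summed to 7064, 13256 and 12254 CPM over 76 genes. H/ACA small nucleolar RNAs, which guide pseudouridylation, summed to 4578, 8726 and 8703 CPM over 38 genes. The Y RNAs Rny1 and Rny3 summed to 6976, 12022 and 15425 CPM, and the vault RNA Vaultrc5 was at 675, 1686 and 1366 CPM.

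Not all structural RNAs had heart 1 lowest. The 7SK RNA (Rn7sk), which holds the elongation factor P-TEFb inactive, was at 7948, 7611 and 6707 CPM, highest in heart 1. The U3 RNAs, which act in ribosomal RNA processing, summed to 5834, 5834 and 5610 CPM. The U1 RNAs of the spliceosome summed to 9461, 13064 and 8663 CPM, highest in heart 2. RNase P RNA (Rpph1), which cuts the leader off transfer RNA, was at 1163, 1900 and 1673 CPM, again lowest in heart 1.

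**Figure D4:**
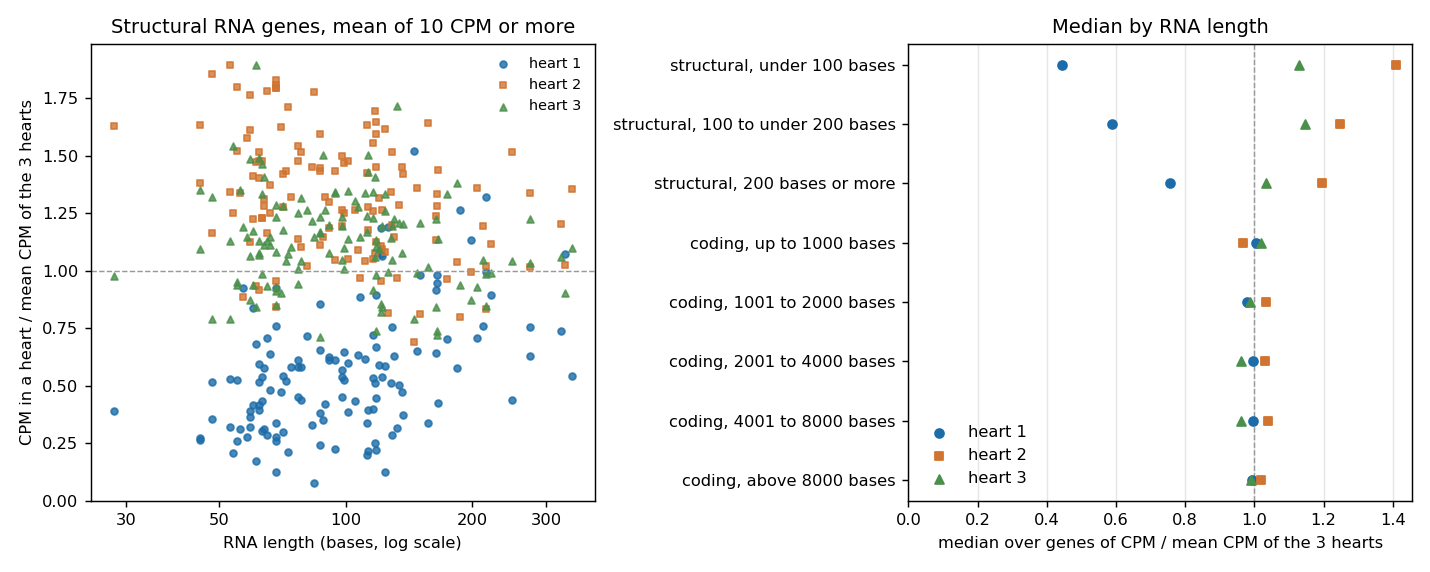
Left: CPM of each structural RNA gene with a mean of at least 10 CPM, divided by its mean over the 3 hearts, against RNA length (bases, log scale), coloured by heart. Right: medians of the same ratio by length for structural and for protein-coding RNA. The medians of heart 1 are 0.445, 0.588 and 0.757 from the shortest to the longest structural RNAs, and those of coding RNA are close to 1 in all hearts.

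The shortest RNAs differed most. Among structural RNAs under 100 bases with a mean of at least 10 CPM, heart 1 was lowest in 65 of 68, and the median gene stood at 0.445 of its mean over the hearts in heart 1, at 1.41 in heart 2 and at 1.13 in heart 3. From 100 to under 200 bases heart 1 was lowest in 37 of 48, with a median of 0.588. At 200 bases or more it was lowest in 8 of 11, with a median of 0.757. Protein-coding RNA did not show this order: for exon lengths up to 1000 bases the medians were 1.00, 0.967 and 1.02 in hearts 1, 2 and 3, and for the longest RNAs 0.994, 1.02 and 0.989. The part of library preparation in this order was not tested.

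Long non-coding RNA was dominated by Malat1, which resides in nuclear speckles, at 7490, 6873 and 8058 CPM. Neat1, the scaffold of paraspeckles, was at 594, 584 and 404 CPM. Gas5, whose introns hold small nucleolar RNAs, was at 312, 883 and 775 CPM and so shared the order of the small nucleolar RNAs, with heart 1 lowest. Mhrt, transcribed next to Myh7, was at 35.3, 25.5 and 27.9 CPM. Imprinted RNAs that mark fetal tissue were low, with H19 at 6.59 ± 1.26 and Meg3 at 6.02 ± 2.02 CPM.

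MicroRNA genes took 0.0156%, 0.0306% and 0.0193% of the counts. Of 643 such genes, 167 had a count and 12 reached 1 CPM in every heart. The method reads fragments of long RNA, so a count at such a gene may stem from its host transcript as well as from the hairpin, and which of these it was is not known. Mir208a lies within Myh6 and was at 2.20 ± 0.687 CPM, and Mir208b lies within Myh7 and was at 2.99 ± 0.672 CPM. Their counts were 19, 21 and 12 for Mir208a and 25, 20 and 25 for Mir208b. Mir499, of the same family, had no count in any heart. The mature sequences from RefSeq (GRCm38.p6) are shown because the family is defined by them. Capitals mark the seed, bases 2 to 8, which is UAAGACG in both 208 forms and UAAGACU in miR-499-5p.
miR-208a-3p: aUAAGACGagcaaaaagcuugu
miR-208b-3p: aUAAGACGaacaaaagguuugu
miR-499-5p: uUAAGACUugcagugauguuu
Among other microRNA genes, Mir3068 was at 10.3, 51.4 and 35.3 CPM, lowest in heart 1, and Mir30c-1 at 0.481, 14.1 and 0.894 CPM, high in heart 2 alone.

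Markers of cells other than muscle cells gave small sums, some narrow and some wide in their spread. In bulk tissue, fewer cells of a type and less RNA per cell cannot be told apart, so the sums below describe RNA and not cell numbers. All 20 endothelial markers were above 1 CPM in every heart, and they summed to 1446, 1530 and 1467 CPM. Their highest members were Fabp4 at 288 ± 16.5, Ptprb at 163 ± 8.41, the growth factor receptor Kdr at 151 ± 5.63 and Pecam1 at 123 ± 6.14 CPM. Von Willebrand factor (Vwf) was an exception to their narrow spread, at 127, 53.8 and 70.5 CPM. Fibroblast markers summed to 1842, 2036 and 1786 CPM over 18 genes, of which 17 were above 1 CPM in every heart. Gsn with 42.2% and Dcn with 19.6% made up most of that sum. Without both it was 684, 781 and 701 CPM. Pdgfra, a receptor that defines these cells, was at 36.6, 55.4 and 43.2 CPM.

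Some lists were led by genes that heart muscle also uses. The smooth muscle and pericyte list summed to 2010, 2097 and 1734 CPM, of which Des held 52.8% and Abcc9 20.6%. Without both, 481, 601 and 470 CPM remained. Its smooth muscle members Acta2 and Myh11 were at 44.5 ± 10.4 and 19.8 ± 3.17 CPM and its pericyte member Rgs5 at 111 ± 5.34 CPM. The skeletal muscle list summed to 1077, 1031 and 950 CPM, of which Ckm held 95.8%. The skeletal myosins Myh1 and Myh4 were at 7.77 ± 3.11 and 6.35 ± 2.89 CPM.

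**Figure D5:**
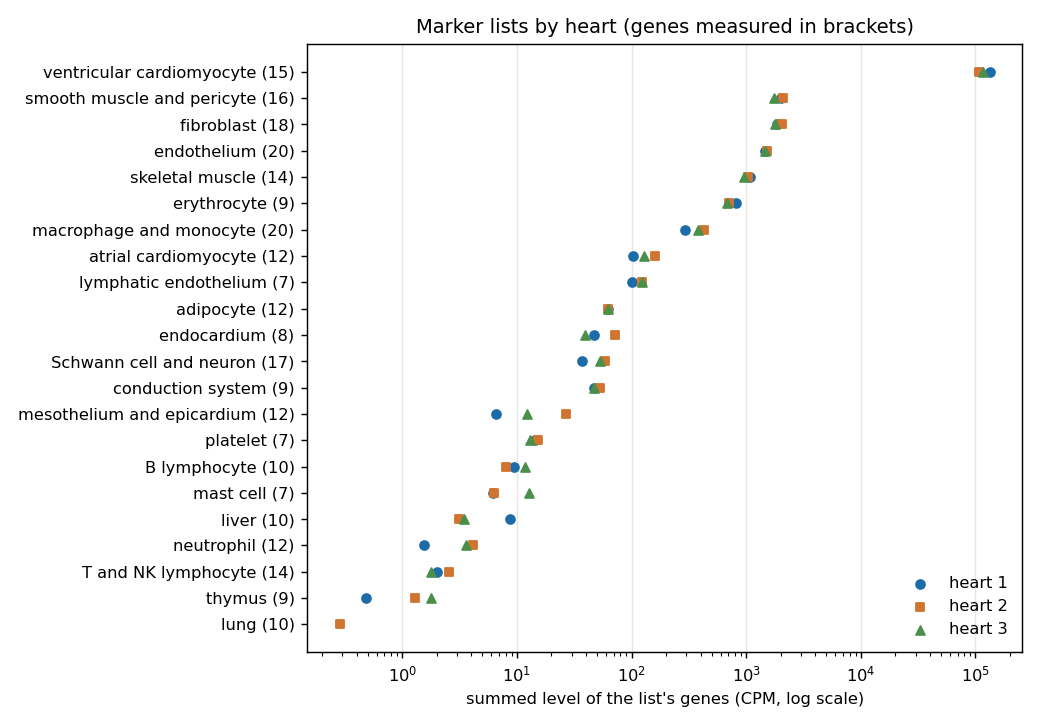
Summed level (CPM, log scale) of 22 marker lists in hearts 1, 2 and 3, with the number of genes measured in brackets and sums of 0 not drawn. The ventricular muscle list, most of it Ttn and Myh6, stands between 107939 and 133709 CPM. Endothelium, fibroblast and mural lists stand between 1446 and 2097 CPM, while lymphocyte, neutrophil, thymus and lung lists stay below 12 CPM in every heart.

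Marker lists of macrophages and of blood cells had low sums. Macrophage and monocyte markers summed to 293, 433 and 378 CPM, lowest in heart 1, and 19 of 20 were above 1 CPM in every heart. Lysozyme (Lyz2) was at 47.7, 97.6 and 88.8 CPM, while the resident macrophage receptor Mrc1 was at 39.8, 42.1 and 38.1 CPM. The heart order of the list was therefore not shared by all its members. Ccr2, which marks monocytes that enter from blood, was at 3.17, 3.57 and 1.64 CPM. Red cell genes summed to 823, 705 and 680 CPM, led by Hba-a1 at 364, 254 and 277 CPM and Hbb-b1 at 205, 265 and 222 CPM. The globin genes are near-identical copies of each other, so their division is uncertain. T and NK cell markers summed to 2.02, 2.57 and 1.79 CPM over 14 genes, of which none reached 1 CPM in every heart. Neutrophil markers summed to 1.54, 4.14 and 3.58 CPM over 12 genes. In every heart, 9 of these T and NK genes and 8 of these neutrophil genes were below the floor of 3 counts. B cell markers summed to 9.52, 7.99 and 11.8 CPM, most of it Blk.

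Tissue from other chambers or from around the heart was looked for in the same way. The atrial list summed to 103, 162 and 128 CPM. Natriuretic peptide A (Nppa), which made up 49.9% of it, was at 51.6, 102 and 42.6 CPM and thus highest in heart 2. The other atrial genes had another order, since Myl7, Myl4 and Sln were highest in heart 3, and Bmp10, a gene of right atrial muscle, had no count in any heart. Of the 12 fat cell markers, 5 were below 3 counts in every heart, while 3 were at 10 CPM or more in every heart. Adipoq had 0, 0 and 1 counts and Plin1 none, and the list's sum of 62.6, 62.8 and 62.7 CPM came mainly from Fasn and Cidea. Mesothelial and epicardial markers summed to 6.63, 27.0 and 12.2 CPM, highest in heart 2, with Msln at 0.961, 6.13 and 2.23 CPM. Conduction system markers summed to 46.9, 53.4 and 47.4 CPM and those of Schwann cells and neurons to 37.0, 59.2 and 52.6 CPM. Liver markers summed to 8.75, 3.14 and 3.43 CPM. The part of atrial or outer-layer RNA in the other differences between hearts was not tested.

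Regulators of the muscle cell were at moderate levels. Of 19 cardiac transcription factors listed, 16 were above 1 CPM in every heart, with Mef2a, Tbx20, Myocd and Gata4 highest. Gata4 was at 92.1, 67.8 and 60.6 CPM and Tbx20 at 99.8 ± 9.30 CPM. Hand1 and Isl1, factors of the developing heart, had no count in any heart. Metabolic regulators were led by Ppargc1a, the coactivator of mitochondrial genes, at 133, 298 and 134 CPM. Heart 2 was thus well above the others, whereas nuclear oxidative phosphorylation took 3.11%, 2.95% and 2.95% of the counts. The fatty acid receptor Ppara was at 132, 165 and 125 CPM and Esrra at 94.0, 86.2 and 69.3 CPM.

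Clock genes cycle over the day, and the time at which the hearts were taken is not given in the sources used here. Bmal1 (Arntl), which activates the loop, was at 1.63, 1.71 and 3.58 CPM, and the repressor and output genes were at higher counts, with Nr1d1 at 147, 99.7 and 122 CPM, Tef at 166, 143 and 121 CPM and Dbp at 51.3, 41.5 and 41.3 CPM. Per2 differed more, with heart 3 lowest, at 37.7, 40.2 and 14.9 CPM. Immediate early genes summed to 225, 304 and 218 CPM, with Jun at 47.2 ± 6.61 CPM and Fos at 1.06, 2.57 and 0.447 CPM. Atf3, a stress-induced member, was at 1.63, 17.4 and 2.09 CPM and so stood out in heart 2.

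Natriuretic peptide B (Nppb), which rises in the loaded ventricle, was at 82.4, 66.9 and 80.4 CPM. Corin, the protease that activates these hormones, was at 183, 231 and 189 CPM. Vegfa, which muscle cells secrete to hold their capillaries, was at 222, 217 and 191 CPM, and the growth factor Fgf1 at 175, 178 and 129 CPM. Gdf15, a hormone of stressed tissue, was below 1 CPM on average.

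Of 20 heat shock and chaperone genes, 19 were above 1 CPM in every heart. The small heat shock protein Hspb7 was at 1352, 1349 and 1206 CPM and Hsp90ab1 at 1038, 763 and 698 CPM. The inducible Hspa1a was at 0.288, 2.43 and 0.596 CPM, highest in heart 2 like Atf3. The muscle ubiquitin ligases Fbxo32 and Trim63 were at 125 ± 12.4 and 121 ± 18.8 CPM. Among 21 antioxidant genes, all were above 1 CPM in every heart, and Sod2, the superoxide dismutase of mitochondria, led at 400, 475 and 438 CPM. Catalase (Cat) was at 116 ± 14.6 CPM.

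The spread over hearts was summarised across genes. Of 7299 genes with a mean of at least 10 CPM, 4973 stayed within 1.5-fold between the highest and lowest heart, the median ratio was 1.36, and 595 genes, or 8.15%, exceeded 2-fold. Structural RNAs made up 92 of these 595, and 72.4% of the structural RNAs at this level exceeded 2-fold against 7.01% of the others. The common biological coefficient of variation, which is the spread left after counting error, was 22.9% over 11339 genes. Without heart 1 it was 15.8%, without heart 2 25.7% and without heart 3 26.2%. Counting error was the smaller part at most levels. From 10 to under 100 CPM the median coefficient of variation was 16.4% and the part due to counting 7.42%, and from 100 to under 1000 CPM 12.4% and 2.78%. Below 10 CPM the values were 26.8% and 15.4%.

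The 10 genes with the widest ratio between hearts were mostly structural RNAs with heart 1 lowest. Snord104 was at 136, 1097 and 687 CPM, Snord90 at 3.94, 56.2 and 33.8 CPM and Snora31 at 65.1, 532 and 380 CPM. The gene numbered 667846, without a symbol, was an exception at 357, 23.7 and 31.7 CPM, with heart 1 highest, and so was Neb. Among genes that are neither structural RNA, microRNA nor unmatched, the next widest after Neb and the non-coding B230208H11Rik were H3f3c, a histone variant, at 24.1, 3.85 and 4.32 CPM, and Tmem100, an endothelial gene, at 7.69, 39.7 and 10.6 CPM.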

How the data were processed

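RNA of 3 hearts was read as 1 library each. The counts are whole numbers per gene, deposited by the authors without normalization. Per the submitters' processing notes, reads were trimmed with cutadapt 1.6 and assigned with Subread 1.4.2 and featureCounts to mm10. Strand, multiply matching reads and annotation version: not given in the sources used here. The same holds for the sequencing run. Of 27179 genes, 25275 were matched to RefSeq and 18 to GENCODE M21 symbols, and 1886 were not matched. CPM used plain library totals. TPM used lengths of GENCODE M21 basic transcripts, known for 22282 genes, scaled over protein-coding genes. The common biological coefficient of variation came from edgeR 4.0.16 in R 4.3.3 with TMM factors and filterByExpr at a count minimum of 10, and DESeq2 1.42.0 gave alternative size factors. The estimator was tested on simulated data. Python 3.11.15 made the other tables.

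Replicates are separate samples by their labels, and nothing says whether they shared a litter. No p-value was computed, since there is 1 group. The members and gene lists were chosen with earlier results of these data known. Genes named are the 30 highest by CPM, the 15 highest nuclear coding genes by TPM, up to 4 per role or list, the 10 with the widest ratio at a mean of at least 10 CPM, and 16 isoform pairs. Others, such as Uqcr11, Atf3, Per2, Hspa1a, Xist, Ccr2 and the motif factors, were chosen after their values were seen. Some items are not reported here.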

Additional observations from a re-analysis of the deposited data

How the results depend on the processing

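Class shares depend on what they are a share of. Without mitochondrially encoded counts, the sarcomere held 19.2%, structural RNA 9.19%, glucose and energy genes 5.14%, oxidative phosphorylation 4.33%, calcium handling 3.58%, fatty acid use 2.04%, cell structure 1.52%, extracellular matrix 0.634% and ribosomal proteins 0.505%. As shares of levels per length over basic transcripts, structural RNA held 49.6%, mitochondrially encoded RNA 28.4%, the sarcomere 3.87%, oxidative phosphorylation 2.74%, glucose and energy genes 1.99%, fatty acid use 0.746%, calcium handling 0.614%, ribosomal proteins 0.370%, cell structure 0.250% and extracellular matrix 0.109%. For structural RNA the divisor is the annotated length, 28 bases for Snord98, without correction for fragment length. Its share per length therefore rests on that divisor. Further settings were chosen after seeing the data. With lengths over all transcripts, the shares per length were structural RNA 52.6%, sarcomere 2.78%, oxidative phosphorylation 1.89% and glucose and energy genes 1.73%. Calcium handling held 0.581%, fatty acid use 0.580%, ribosomal proteins 0.253%, cell structure 0.2005% and extracellular matrix 0.0807%. Without mitochondrial, structural and unmatched genes, the shares were 22.5% for the sarcomere, 6.01% for glucose and energy genes, 5.07% for oxidative phosphorylation, 4.18% for calcium handling, 2.39% for fatty acid use, 1.78% for cell structure, 0.742% for extracellular matrix and 0.591% for ribosomal proteins. Among nuclear genes, 180 held 50% of the counts, and 17851 genes had a count in any heart. The coefficient of variation was 23.2% without scaling factors, 22.948% with DESeq2 size factors, 28.8% over all genes with a count and 21.953% without mitochondrial and structural RNA, and ran from 15.8% (without heart 1) to 26.2% with 1 heart left out. TMM or DESeq2 factors moved 3 of 307 named genes each by more than 1 SD. No paired analysis was possible because there is 1 group and no test. Counts below the floor limit what can be said of lymphocyte, neutrophil, thymus and lung markers.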

Other observations

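Several genes that most cells use heavily were listed at or near 0, and they were chosen after their values were seen. Gapdh, a glycolytic enzyme, was at 2.40, 6.71 and 4.47 CPM, while Eno3 of the same pathway was at 1225, 978 and 1003 CPM. Tmsb4x had no count in any heart, and Rpl13 had 0, 3 and 2 counts. How multiply matching reads were counted is not given in the sources used here, so the levels of genes with near-identical copies are uncertain.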
